A study of Mus musculus with 8 samples.

Results

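The control olfactory mucosa of newborn mice is described here from 4 of the 8 samples of the series, those whose phenotype label is control littermate. All 4 were taken on postnatal day 1 from mice of a mixed 129 x C57BL/6J background, and the dissected tissue holds the olfactory epithelium with its lamina propria. The samples fall into 2 genotypes with 2 samples each: 123Cre:Emx2(fl/+), which carries Cre and 1 floxed Emx2 allele, and Emx2(fl/fl), which carries 2 floxed alleles and no Cre. In 123Cre mice a transgene drives Cre in olfactory sensory neurons (OSNs) once these have reached their immature stage, and in neither genotype can more than 1 Emx2 allele be lost. Every control thus carries at least 1 floxed allele, and no sample with 2 unmodified Emx2 alleles is among them. Every sample has 1 array of the type Affymetrix Mouse Gene 1.0 ST, hybridised with its RNA. Members were the 21789 rows with 1 gene symbol among the 35557 rows of the table. The 4 samples that lost Emx2 are left out of every value below, except for a fit named as an alternative.

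The olfactory epithelium is a neural tissue that renews itself. Horizontal basal cells are its reserve stem cells, dividing progenitors above them give rise to immature OSNs, and these become mature OSNs whose cilia reach the nasal air space. Each mature OSN transcribes 1 odorant receptor (OR) gene, or 1 trace amine-associated receptor (TAAR) gene, out of large families. Sustentacular cells support the neurons and detoxify inhaled compounds, glands beneath the epithelium secrete mucus and binding proteins, and ciliated cells border the neighbouring respiratory epithelium. The vomeronasal organ, which lies at the base of the nasal septum, has its own receptor families, Vmn1r, Vmn2r and the formyl peptide receptors.

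A value in what follows is the deposited log2 signal of a transcript cluster, called a row, which summarises the probes along 1 gene. A step of 1 is a doubling of signal. Rank 1 is the highest control mean. The signal of a row depends on its probes as well as on its mRNA, so ranks order signals and not numbers of molecules. Where 4 values are given they are in the order 123Cre:Emx2(fl/+) replicates 1 and 2, then Emx2(fl/fl) replicates 1 and 2. In RNA of a whole tissue, fewer cells of a type and less RNA per cell cannot be told apart.

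As an empirical level for rows with little or no specific signal, 34 measured genes of organs that were not dissected (sperm, oocyte, pancreas, retina, liver, kidney, gut, lung and others) were taken. Their median was 6.45, and the 95th percentile of their control means, 7.81, is called the reference level. Of all rows with 1 symbol, 65.1% (14187 of 21789) had a control mean above it. The highest of the 34 was growth hormone, Gh, at 9.39, whose values of 8.99, 9.38, 11.34 and 7.85 differed between samples more than those of the others on the list. Without Gh the level would be 7.51. Next came surfactant protein Sftpc of the lung at 8.36, the only other gene of the list above the level.

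The arrays resembled each other, with medians from 8.05 to 8.11 and pairwise correlations from 0.985 to 0.993 over all rows. The median SD of a row over the 4 samples was 0.121. The labels do not say whether samples came from separate animals or pools, so this spread may in part be technical, and the number of arrays limits the precision. A pair of samples carried more signal of neighbouring tissue than the rest. In 123Cre:Emx2(fl/+) replicate 1, all 4 measured bone genes were highest, with a list mean of 10.60 against 9.38, 9.01 and 8.89. In Emx2(fl/fl) replicate 1, 9 of 10 genes of the olfactory bulb and brain were highest, with a list mean of 7.99 against 7.48, 7.50 and 7.74. Receptor family means, counts above the reference level, levels of the set markers and the genotype comparison were recomputed with each sample left out. SDs, list ranges and the sample in which a row was lowest or highest are given over the 4 samples only.

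The markers of the 5 main epithelial cell types were above the reference level in each of the 4 samples. Cyp2g1, a cytochrome P450 of sustentacular cells, had values of 14.01, 14.08, 14.00 and 14.00 and ranked 9 of 21789. Omp, the olfactory marker protein of mature OSNs, had values of 12.92, 12.86, 12.90 and 13.07 and ranked 179. Gap43, a growth cone protein of immature OSNs, had values of 11.48, 11.56, 11.57 and 11.65 and ranked 1228. These markers varied little between samples, with SDs of 0.040, 0.091 and 0.070. Krt5, a keratin of horizontal basal cells, had values of 10.41, 10.37, 10.81 and 10.23 (SD 0.251, rank 3863), so that Emx2(fl/fl) replicate 1 stood above the others. Foxj1, the transcription factor that drives the program of motile cilia, had values of 10.17, 10.01, 10.32 and 9.997 (SD 0.152, rank 5113). Expressed as the share of rows with a lower mean, the markers stood at 99.96% for Cyp2g1, 99.2% for Omp, 94.4% for Gap43, 82.3% for Krt5 and 76.5% for Foxj1. Over all rows of the table these shares were 99.9%, 98.6%, 94.0%, 84.5% and 80.2% in the same order. Each of the 5 genes thus gave signal above the reference level, which 65.1% of all rows exceeded. By itself, a level in whole tissue does not show which cells carried the signal.

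Among the highest rows, housekeeping and translation genes stood beside products of supporting cells and glands. The 40 rows of highest mean, all at 13.66 or above, carried only 22 different symbols, since several symbols had more than 1 row: Rps6 had 7 rows, Rpl10 had 6, Tpt1 had 4 and Sumo2 had 3. Ribosomal proteins made up 15 of the 40 rows, and cytoskeletal, chaperone and translation genes such as Actb (14.20), Eef1a1 (14.15), Tuba1a (13.83) and Hspa8 (13.68) made up 8. Rpl21 held 2 of the ribosomal rows, at 13.68 and 13.67. The histone gene H4c4 averaged 13.90, and Txn1, the redox protein thioredoxin, averaged 13.89. Small non-coding RNAs held 4 rows, among them Rn7sk (14.50), which restrains transcription elongation, Rny3 (14.23) and Rpph1 (14.22), the RNA subunit of RNase P. The first rank belonged to a row of Baiap2l1, an adaptor protein of the actin cytoskeleton, at 14.54. The symbol has 2 further rows, at 12.35 and 10.87, so its rows did not give 1 level, and the first rank is a statement about that row alone.

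The tissue's own products in the 40 rows were few and named easily. Bpifa1, a secreted protein of airway surfaces, had values of 14.13, 14.15, 14.10 and 14.10. Scgb1c1, a secretoglobin of the olfactory mucosa, averaged 13.86 and Bpifb9b, of the same family as Bpifa1, averaged 13.82. Beside Cyp2g1, sustentacular cells were represented by Cbr2, a carbonyl reductase, at 13.96. OSN transduction was represented by Gnb1, a G protein beta subunit used by many cells, at 14.07 and by Stoml3, a stomatin-like protein of OSN cilia, at 13.89. In 39 of the 40 rows the SD over samples stayed under 0.15, and the exception was Bpifb9b, at 14.14, 13.86, 13.66 and 13.65 (SD 0.230). When 1 row per symbol was kept, the list of the 100 highest genes also held Fabp7 of ensheathing glia, Sparc of the matrix, Stmn2 of immature OSNs, Krt8 of sustentacular cells, and Lcn11 and Reg3g among secreted proteins.

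**Figure D1:**
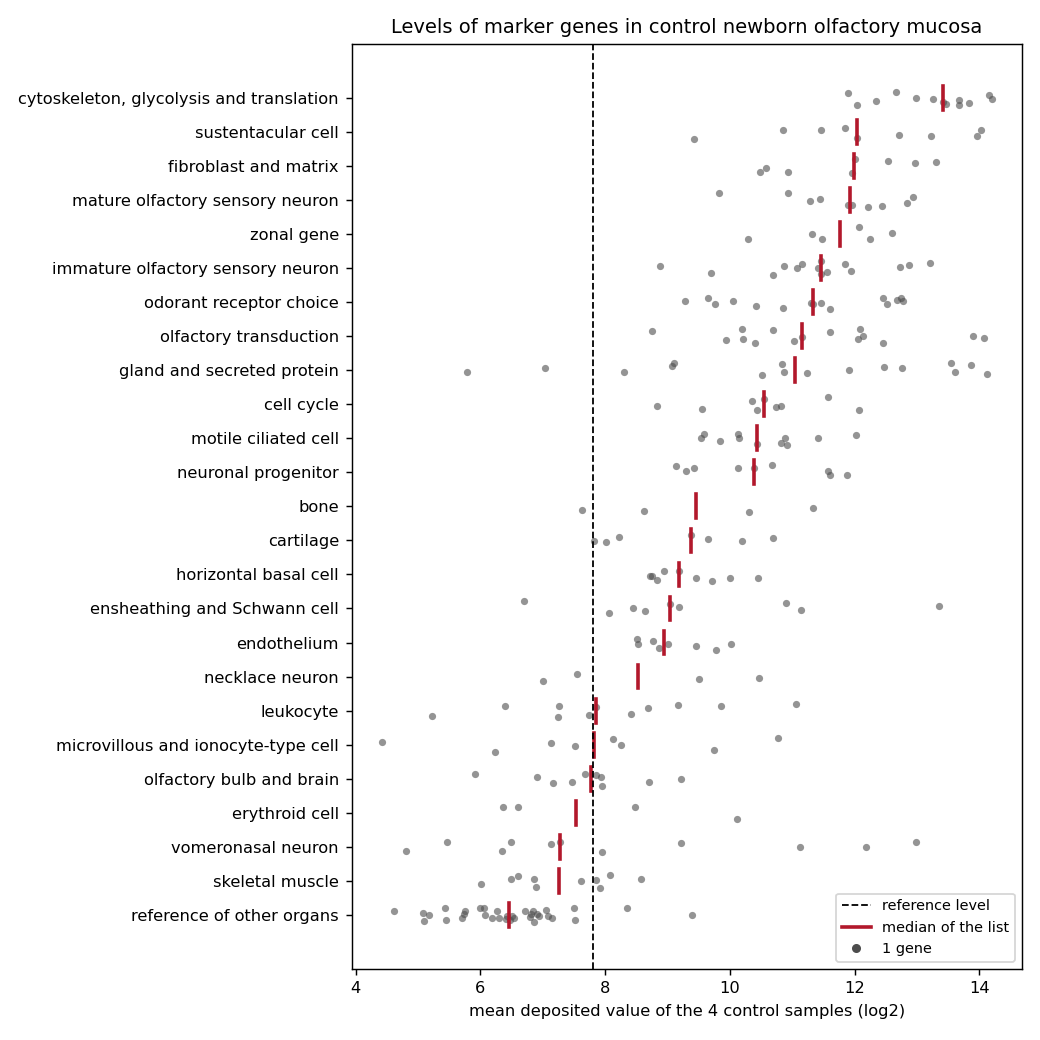
Mean deposited log2 value of the 4 control samples for each measured gene of 25 lists of cell type markers and gene groups, 1 grey point per gene, with the median of each list as a red bar and the reference level of 7.81 as a dashed line. All measured genes of the mature and immature OSN lists and of the sustentacular list lie right of the line. Of all rows with 1 symbol, which are not drawn, 65.1% exceed it. The line was set from the 34 genes of other organs, so the count of 2 of them right of it follows from its definition.

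In the neuronal lineage, every measured marker exceeded the reference level, as did 65.1% of all rows. All 10 measured genes of mature OSNs did, with a median of 11.93 that stood above 96.5% of all rows. S100a5, a calcium-binding protein of odour-stimulated OSNs, averaged 12.84, Rtp1, a chaperone that brings ORs to the cell surface, 12.44, and its relative Rtp2, 10.93. The lowest of the list was the adhesion protein Kirrel3 at 9.82. Sult1d1, a sulfotransferase, was the least steady of the list, with values of 11.76, 12.46, 11.28 and 12.08 and its lowest value in Emx2(fl/fl) replicate 1.

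The 15 genes of odour transduction had a median of 11.15 and were all above the reference level, as were 65.1% of all rows. Gnal, the alpha subunit of the olfactory G protein, averaged 12.45 ± 0.18, Adcy3, the cyclase it activates, averaged 11.15 ± 0.055, and Cnga2, a subunit of the cAMP-gated channel, averaged 12.06 ± 0.043 (SD, n = 4 each). The other channel subunits, Cnga4 at 10.202 and Cngb1 at 9.94, and the chloride channel Ano2 at 11.02 lay below these. The lowest was Grk3, a receptor kinase, at 8.75. In 7 of these 15 genes the lowest value was that of Emx2(fl/fl) replicate 1, but the list mean differed by no more than 0.105 between samples (11.39, 11.41, 11.30 and 11.40).

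Immature OSNs and their precursors were well represented at this age. The 15 genes of immature OSNs had a median of 11.45 and ran from Stmn2, a microtubule regulator of growing axons, at 13.21 to Trib3, a pseudokinase, at 8.88. The list mean was 11.32, 11.32, 11.49 and 11.43, and 9 of the 15 genes were highest in Emx2(fl/fl) replicate 1. Of 10 genes of neuronal progenitors 9 had a row of their own. All 9 were above the reference level, as were 65.1% of all rows. Sox2 of stem and supporting cells led at 11.88, followed by the neuronal differentiation factors Nhlh1 at 11.61 and Insm1 at 11.58. Neurog1, which commits progenitors to the neuronal fate, stood at 9.43 and Nhlh2 was lowest at 9.14. Genes of the cell cycle, with a median of 10.55, ran from Pcna, the replication clamp, at 12.07 to Mcm3, a subunit of the replicative helicase, at 8.82. Mki67 had values of 10.91, 10.99, 10.56 and 10.83. The list mean of cell cycle genes was highest in 123Cre:Emx2(fl/+) replicate 1 at 10.75, where 7 of 9 genes were highest, and lowest in Emx2(fl/fl) replicate 1 at 10.37.

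Proteins that act on OR transcription or OR choice formed a list of 15 genes with a median of 11.34. All 15 were above the reference level, as were 65.1% of all rows. At the top of the list were 3 Ebf factors, which bind sites in OR promoters and enhancers: Ebf2 averaged 12.78, Ebf3 12.75 and Ebf1 12.68. Ebf4 averaged 11.30, below the median of the list. Lhx2, a LIM homeodomain factor of OSNs, had values of 12.47, 12.50, 12.53 and 12.56, and its partner Ldb1 averaged 12.45. Emx2, the other homeodomain factor of OR expression, had values of 10.80, 10.72, 10.86 and 11.00, at rank 2664 against rank 322 for Lhx2. The demethylase Kdm1a, which acts when an OR allele is first opened, averaged 11.34, and the methyltransferases Ehmt2 and Ehmt1, which set repressive histone marks, averaged 10.05 and 9.66. Ddit3, a factor of the stress response, was lowest at 9.29. The highest SD in the list was 0.207.

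Sustentacular and gland genes differed in steadiness. The 9 measured sustentacular genes had a median of 12.04 and a list mean of 12.15, 12.20, 12.16 and 12.17, the second narrowest range among all lists at 0.047. The exception within the list was Ermn, an actin-binding protein, at 10.86, 11.28, 10.14 and 11.10, lowest in Emx2(fl/fl) replicate 1. Genes of glands and secretions, with a median of 11.05, ran from Bpifa1 at 14.12 down to the lipocalin Lcn4 at 5.79. Of these genes 14 of 16 exceeded the reference level, as did 65.1% of all rows. The odorant binding proteins were among the most uneven genes of the tissue. Obp2a had values of 10.01, 8.36, 9.30 and 8.58, and Lcn3 had values of 9.22, 8.82, 10.04 and 8.33, so that replicate 1 of each genotype was the higher of its pair. Obp1a had values of 8.09, 6.96, 6.45 and 6.63 and passed the reference level in 1 sample only. The mucin Muc5ac, at 11.32, 11.66, 12.70 and 11.96, and the antimicrobial protein Ltf, lactotransferrin, at 10.90, 11.57, 11.89 and 10.55, were highest in Emx2(fl/fl) replicate 1.

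The minor epithelial cell types spanned a wide range. All 9 genes of horizontal basal cells exceeded the reference level, as did 65.1% of all rows. They ran from Krt5 at 10.46 to Col17a1, a hemidesmosome collagen, at 8.71, and the list median stood above only 58.4% of rows. In Emx2(fl/fl) replicate 1, 7 of the 9 were highest, and the list mean was 9.53 against 9.26 to 9.30. All 11 measured genes of motile ciliated cells exceeded the reference level, from the tubulin-binding protein Tppp3 at 12.03 to the axonemal protein Tekt1 at 9.53. Of 8 genes of microvillous and ionocyte-type cells 4 did. Ascl3 and Foxi1, transcription factors, averaged 10.76 and 9.74, while Trpm5, a cation channel, averaged 7.52, and the G protein subunit Gnat3 averaged 4.42, above only 1.60% of rows. Among ensheathing and Schwann cell genes 8 of 9 exceeded it, led by Fabp7, a fatty acid binding protein of ensheathing glia, at 13.33, 13.52, 13.02 and 13.53.

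Genes of tissues below and beside the epithelium differed in level. Fibroblast and matrix genes were high, with a median of 11.98 and Sparc at 13.31. All 8 genes of endothelium and all 7 of cartilage exceeded the reference level, as did 65.1% of all rows. The medians of the endothelium and cartilage lists, 8.94 and 9.37, stood above only 53.8% and 62.0% of rows. Skeletal muscle genes had a median of 7.25 and 4 of 10 above the level, of which Acta1, skeletal actin, was highest at 8.57. Leukocyte genes had a median of 7.85 and 6 of 11 above the level. They were led by the lysozyme gene Lyz2 at 11.06 and the complement component C1qb at 9.86, both of macrophages. Of other macrophage genes, Csf1r averaged 9.17, Cd68 8.68 and C1qa 8.41, but Aif1 averaged only 6.39. Ptprc, shared by leukocytes, averaged 7.26, Cd3e of T cells 7.25 and Cd79a of B cells 5.23. Genes of the olfactory bulb and brain had a median of 7.76 and 5 of 10 above the level. The part of each neighbouring tissue in any level given here was not tested.

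**Figure D2:**
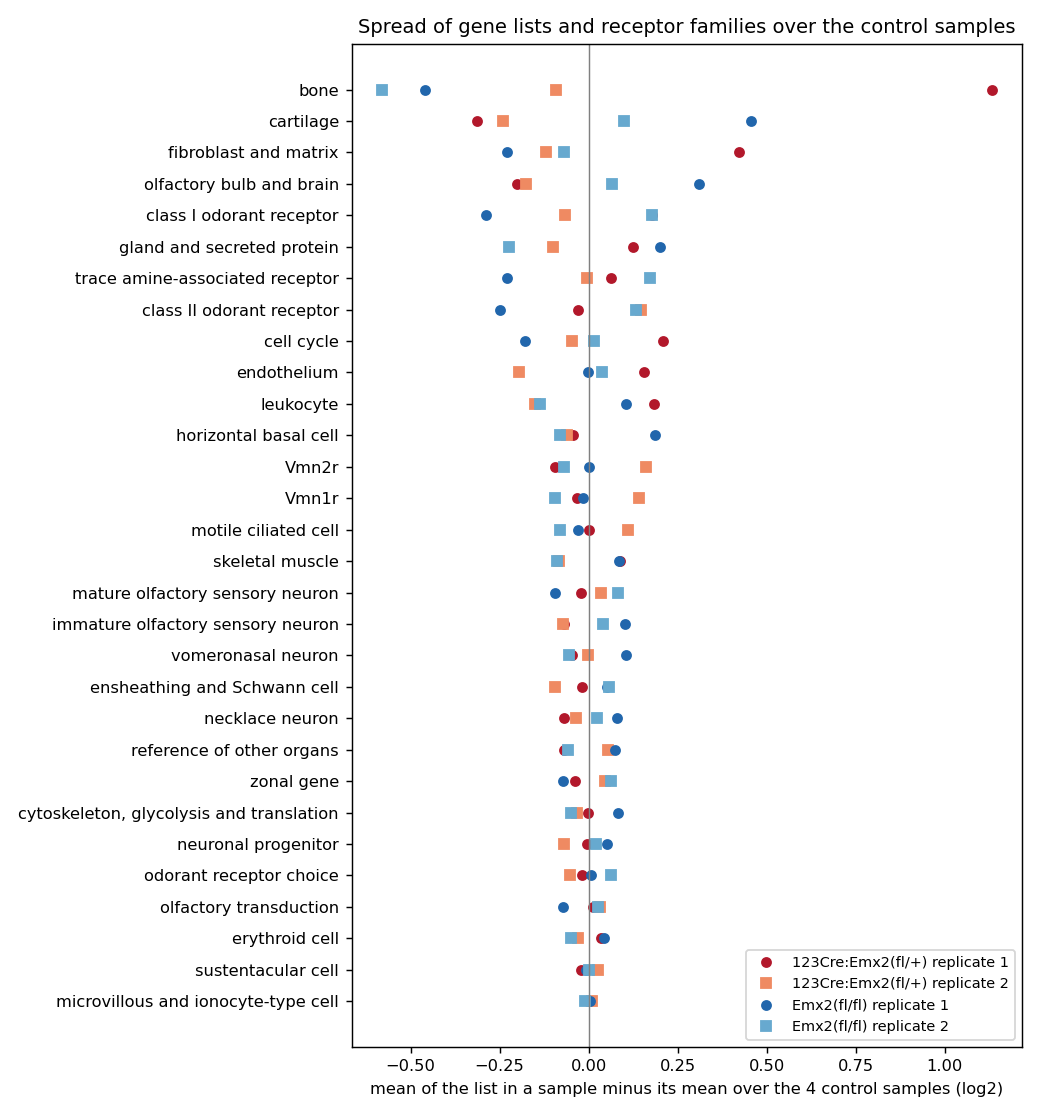
Mean of each gene list or receptor family in 1 sample minus its mean over the 4 control samples, on the log2 scale, with lists ordered by their range and 1 mark per sample. Bone has the widest range, 1.71, with 123Cre:Emx2(fl/+) replicate 1 at the far right, and microvillous and sustentacular lists have the narrowest.

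Lists of skeletal, connective and brain tissue varied most between control samples. The bone list had a range of 1.71 on the log2 scale, cartilage 0.769, fibroblast and matrix 0.652 and olfactory bulb and brain 0.511, against 0.178 for mature OSNs. Ibsp, bone sialoprotein, had values of 12.80, 11.64, 10.57 and 10.31, and Col1a1, the chain of collagen in bone and connective tissue, had values of 13.35, 12.31, 12.33 and 12.18. Matn1, matrilin of cartilage, had values of 7.74, 7.81, 9.18 and 8.13, so that bone was highest in one sample and cartilage in another. Of the 20 rows above the reference level with the largest SD, 6 were highest in 123Cre:Emx2(fl/+) replicate 1, namely Ibsp, Phex, Mmp13, Acp5, Car3 and Mmp9. Phex is an osteoblast and osteocyte peptidase, and Mmp13, Mmp9 and Acp5 are a pair of matrix proteases and a phosphatase known from osteoblasts and osteoclasts. Mmp13 had values of 10.95, 9.32, 8.41 and 8.47, and Acp5 had values of 11.25, 9.54, 9.11 and 8.80.

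Another 6 of the 20 were highest in Emx2(fl/fl) replicate 1, namely Gh, Ptgds, Slc6a13, Slc6a11, Gabra5 and Islr2. Ptgds, prostaglandin D synthase of the meninges, had values of 9.28, 9.34, 11.88 and 10.15. Slc6a13 and Slc6a11, which are GABA transporters, had values of 7.11, 7.21, 9.74 and 8.12 and of 7.60, 7.75, 9.98 and 8.004. In both genes the second highest sample was the other Emx2(fl/fl) sample. In 123Cre:Emx2(fl/+) replicate 2, BC051076 had 11.31 against 8.08, 7.33 and 8.35, and 5430401F13Rik had 10.25 against 8.06, 7.10 and 7.77. Csn3, kappa casein, was also highest there, at 7.43, 8.90, 8.71 and 7.42. Olfr799 was the only OR among the 20 and no TAAR or vomeronasal receptor was among them. It had values of 8.50, 9.30, 7.17 and 8.47. Xist, Eif2s3y, Uty and Kdm5d, also among the 20, are the sex-linked genes given at the end.

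OR genes covered a broad range of signal. Of 1035 OR rows with 1 symbol, which stand for 1027 genes, 465 (44.9%) had a mean above the reference level, a smaller share than the 65.1% of all rows. Means ran from 3.46 to 11.35 with a median of 7.68. The 5th and the 95th percentile were 3.98 apart on the log2 scale, which is 15.8-fold, and 101 rows (9.76%) were above 9 and 15 rows above 10. Between 9 and 10 lay 8.31% of OR rows and 20.1% of rows of other genes, and between 10 and 11 lay 1.26% and 16.1%. In all 4 samples at once 347 of 1035 OR rows exceeded the reference level, against 13563 of 21789 for all rows. The median OR row stood above 32.8% of all rows, although ORs are transcribed at a high level in the cell that chose them, and each is chosen by few cells. With a sample left out, the reference level was taken anew from the samples kept. The count above that level was 516 without Emx2(fl/fl) replicate 1, in which ORs were low, and 466 without 123Cre:Emx2(fl/+) replicate 1.

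**Figure D3:**
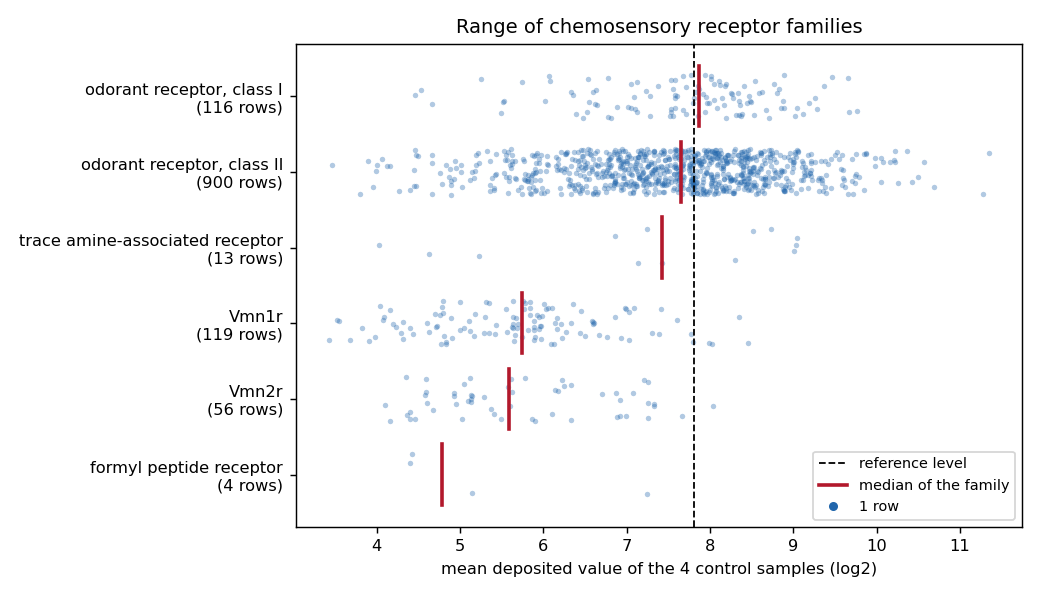
Mean deposited log2 value of the 4 control samples for each row of 6 receptor groups, 1 blue point per row, with the median of the group as a red bar and the reference level of 7.81 as a dashed line. OR medians lie near the line, at 7.87 for class I and 7.65 for class II, and the medians of Vmn1r and Vmn2r, 5.74 and 5.59, lie well left of it.

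The highest OR was Olfr15, at 11.30, 11.63, 10.91 and 11.58, which ranked 1544 among all rows and was first or second among ORs in every sample. Olfr745 followed at 11.57, 11.33, 10.69 and 11.51. Their means, 11.35 ± 0.33 and 11.27 ± 0.40 (SD, n = 4 each), differed by less than the spread between samples, and Olfr745 was above Olfr15 in 1 sample. Below this pair came Olfr220 at 10.69 ± 0.33, Olfr1537 at 10.57 ± 0.21, Olfr239 at 10.49 ± 0.35 and Olfr168 at 10.43 ± 0.22. Olfr220 was above Olfr1537, Olfr239 and Olfr168 in every sample, while Olfr239 was above Olfr1537 in 1 sample and below it in the rest. Next were Olfr449 at 10.36, Olfr19 at 10.26, Olfr1176 at 10.22, Olfr1006 at 10.204, Olfr365 at 10.16, Olfr1264 at 10.08, Olfr309 at 10.05 and Olfr727 at 10.05, of which Olfr449 and Olfr1264 had SDs of only 0.099 and 0.084. Of the 15 ORs with the highest mean, 9 were among the highest 15 in each of the 4 samples. All 15 belong to class II, which holds 900 of the 1035 OR rows. One of the 15, Olfr1174, is called a pseudogene in the reference and averaged 10.22, and the next pseudogene, Olfr947-ps1, averaged 8.29. At the other end were Olfr834 at 3.46, Olfr1232 at 3.80, Olfr1475 at 3.89, Olfr1061 at 3.95 and Olfr926 at 3.99. Olfr834 had values of 3.47, 3.44, 3.46 and 3.48, with none of the variation seen in the high ORs.

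**Figure D4:**
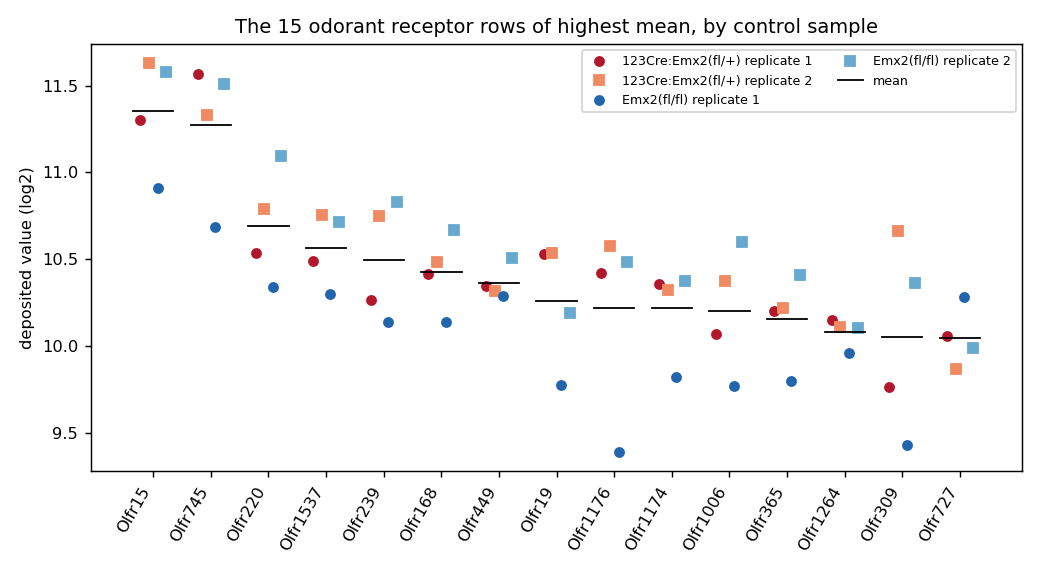
Deposited log2 values of the 15 OR rows of highest mean in each control sample, with the mean as a black line. Emx2(fl/fl) replicate 1, the blue circles, is lowest for 14 of them, at 10.91 for Olfr15 and 10.69 for Olfr745, and highest for Olfr727 at 10.28.

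ORs were less steady between samples than other genes. The median SD of an OR row was 0.245 against 0.118 for rows of other genes, and the gap was there at each level for which both had at least 20 rows. Between 8 and 9, for example, 294 OR rows had a median SD of 0.270 and 3391 other rows one of 0.129, and between 5 and 6 the medians were 0.226 and 0.102. An SD above 0.5 was found in 44 OR rows (4.25%) and in 139 other rows (0.676%). These differences have no test and were not recomputed with Emx2(fl/fl) replicate 1 left out. The same sample was low for most of them. Emx2(fl/fl) replicate 1 was the lowest sample for 732 OR rows (70.7%), against 28.5% of other rows. Over all OR rows the means were 7.55, 7.67, 7.30 and 7.69. The list means of mature OSN markers and of transduction genes were lowest in the same sample too, 0.178 and 0.105 below the highest sample, while the OR mean was 0.391 below it. By gene, 3 of 10 mature OSN markers and 7 of 15 transduction genes were lowest there, and 5 of 10 and 5 of 15 were lowest in 123Cre:Emx2(fl/+) replicate 2. The brain and cartilage lists were highest in Emx2(fl/fl) replicate 1, and their part in the low OR values was not tested. Among the ORs chosen after the values were seen, for a large SD above the reference level, Olfr1297 had values of 9.09, 10.15, 8.69 and 9.74, Olfr816 had values of 8.29, 9.06, 7.59 and 8.79, and Olfr1168 had values of 8.96, 9.63, 8.24 and 9.53.

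Class I ORs, which resemble the receptors of fish and are mostly expressed in the dorsal epithelium, differed from class II in how they varied over the samples. Classes were read from receptor family names among the reference synonyms. By these names, class I has 116 rows, 900 belong to class II, and 19 could not be placed. Class I rows had a median of 7.87, with 61 of 116 (52.6%) above the reference level. Class II rows had a median of 7.65, with 394 of 900 (43.8%) above it, and of all rows 65.1% were above it. The highest class I rows were Olfr550 at 9.77, Olfr622 at 9.68 and Olfr672 at 9.65, below the highest rows of class II. Class I averaged 7.87, 7.63, 7.41 and 7.87 over the samples, and class II averaged 7.51, 7.68, 7.29 and 7.67. The difference of class I minus class II was thus 0.37, -0.05, 0.12 and 0.20, and its sign turned in 123Cre:Emx2(fl/+) replicate 2. No class I row was lowest in 123Cre:Emx2(fl/+) replicate 1, while 150 class II rows (16.7%) were.

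Genes that mark zones of the epithelium are set beside this difference. Nqo1, a quinone reductase of dorsal OSNs, had values of 11.59, 11.32, 11.38 and 11.58, and Acsm4, an acyl-CoA synthetase of the dorsal zone, had values of 12.72, 12.55, 12.41 and 12.74. Both were higher in 123Cre:Emx2(fl/+) replicate 1 and Emx2(fl/fl) replicate 2, the samples in which class I ORs were highest. Ncam2, an adhesion molecule of the ventral zones, had values of 9.87, 10.80, 10.099 and 10.38, highest in the sample where class II exceeded class I and lowest where class I led by most. The other 3 genes of the list, the Nfi transcription factors, did not share 1 order: Nfia had values of 11.32, 11.29, 11.29 and 11.34, Nfib 12.01, 12.28, 11.89 and 12.09, and Nfix 12.25, 12.02, 12.49 and 12.24. With 4 samples no relation was tested, and the share of dorsal and ventral epithelium in each dissection was not tested.

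TAARs, a small family that detects amines, had 13 rows, of which 6 (46.2%) exceeded the reference level, against 65.1% of all rows. Taar7b was highest at 9.21, 9.23, 8.54 and 9.22, Taar7d followed at 9.26, 9.02, 8.48 and 9.38, and Taar4 averaged 9.004, and these 3 differed by less than their spread. Taar7e averaged 8.74, Taar6 8.51 and Taar3 8.30. Taar5 averaged 7.14 and Taar1, which is known for its roles outside the nose, averaged 5.23. The lowest were Taar8b at 4.63 and Taar8c at 4.02. As with ORs, 10 of 13 rows were lowest in Emx2(fl/fl) replicate 1, and the family means were 7.39, 7.32, 7.09 and 7.49.

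Vomeronasal receptors lay mostly at the level of genes from other organs, while 65.1% of all rows exceeded the reference level. Of 119 Vmn1r rows 4 (3.36%) exceeded the reference level: Vmn1r89 at 8.37, 8.62, 8.46 and 8.40, Vmn1r86 at 8.35 on average, Vmn1r71 at 8.02 and Vmn1r208 at 7.99. The lowest was Vmn1r23 at 3.42. Of 56 Vmn2r rows 1 (1.79%) did, Vmn2r1, at 7.62, 8.15, 8.41 and 7.97, and so not in every sample. Vmn2r26 averaged 7.66 and Vmn2r93 averaged 7.33, and the lowest was Vmn2r111 at 4.10. None of the 4 formyl peptide receptors did, of which Fpr-rs3 was highest at 7.24 and Fpr-rs7 lowest at 4.39. Family medians were 5.74 for Vmn1r and 5.59 for Vmn2r, and 224 OR rows stood above the highest of both families.

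Vomeronasal receptors were highest in 123Cre:Emx2(fl/+) replicate 2 for 107 of 175 rows. The same sample was highest for 415 of 1035 OR rows and for 5537 of 20562 rows of other genes. It was also highest for 18 of the 34 genes of other organs and for 3 of the 4 formyl peptide receptor rows, so this was not particular to Vmn1r and Vmn2r rows. The lowest sample of vomeronasal receptors was Emx2(fl/fl) replicate 2 for 71 rows and Emx2(fl/fl) replicate 1 for 45, and the mean over Vmn1r rows was 5.64, 5.81, 5.66 and 5.58. Against a share of 65.1% of all rows, 5 of 11 measured genes of vomeronasal neurons exceeded the reference level. They were the G protein subunits Gnao1 at 12.98 and Gnai2 at 12.18, which many neurons use, the transcription factors Meis2 at 11.13 and Tfap2e at 7.96, and the chaperone Calr4 at 9.22. The 6 class Ib genes of the H2-M family, which accompany Vmn2r receptors, were all below it, from H2-M10.2 at 7.28 to H2-M10.1 at 4.81. Of the 4 necklace neuron genes 2 exceeded it, Car2, a carbonic anhydrase, at 10.46 and Pde2a, a phosphodiesterase, at 9.51. Gucy2d, the guanylyl cyclase of these cells, averaged 7.54 and Cnga3, a subunit of their channel, 7.002, both below it.

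Sequences around the start of OR genes are shown for the highest OR, the second and the fourth, to set the levels beside the sites that homeodomain factors such as Lhx2 and Emx2 can bind. Each window is RefSeq sequence of build GRCm38.p6, from 250 bases before to 50 after the annotated gene start, 5′ to 3′ on the gene's strand, and capitals mark a match to TAATGA or TAATTA on either strand (TCATTA is TAATGA read on the other strand). The windows are Olfr15 at chr16:3838725-3839024 (plus strand), Olfr745 at chr14:50641945-50642244 (plus strand) and Olfr1537 at chr9:39238382-39238681 (minus strand).
Olfr15: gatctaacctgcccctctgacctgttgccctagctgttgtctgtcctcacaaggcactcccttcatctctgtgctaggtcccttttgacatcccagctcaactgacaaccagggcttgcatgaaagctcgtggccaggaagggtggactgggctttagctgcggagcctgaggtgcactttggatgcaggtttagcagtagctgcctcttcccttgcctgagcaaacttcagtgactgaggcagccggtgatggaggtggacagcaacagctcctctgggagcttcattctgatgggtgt
Olfr745: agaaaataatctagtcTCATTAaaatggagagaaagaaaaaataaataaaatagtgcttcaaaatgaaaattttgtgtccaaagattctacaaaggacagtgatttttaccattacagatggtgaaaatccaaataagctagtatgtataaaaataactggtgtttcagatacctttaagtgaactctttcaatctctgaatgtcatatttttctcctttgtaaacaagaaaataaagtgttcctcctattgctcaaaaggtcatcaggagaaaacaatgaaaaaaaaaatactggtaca
Olfr1537: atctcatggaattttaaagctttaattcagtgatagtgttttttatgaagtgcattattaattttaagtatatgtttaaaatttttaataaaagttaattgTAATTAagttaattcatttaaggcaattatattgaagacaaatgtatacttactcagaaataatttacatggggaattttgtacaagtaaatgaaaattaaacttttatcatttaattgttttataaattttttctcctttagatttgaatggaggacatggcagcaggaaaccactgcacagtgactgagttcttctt

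The window of Olfr15 held neither motif, and those of Olfr745 and Olfr1537 held 1 match each. Of 1027 OR genes on the array 866 had such a window, and 352 of them (40.6%) held at least 1 match, against 15.9% of all 27025 windows and 11.2% of 14587 windows of the other genes on the array. OR windows were rich in A and T, with a mean GC content of 36.1% against 58.4% for the other genes, and the part of base composition in these shares was not tested. When the ORs were put in 4 groups of equal size by their level, the share was 38.3% in the highest group, 38.8% and 41.2% in those between, and 44.4% in the lowest, with no test. The mean GC content of these groups fell in the same order, at 37.3%, 37.0%, 36.2% and 33.6%, and its part in the shares was not tested. In 629 of the 866 OR windows the annotated start is the ATG of the coding sequence, so the window covers the bases upstream of the protein's start and need not reach the promoter. A match is a description of letters and not a bound site.

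The control genotypes were compared with limma over all 23410 rows that carry a gene symbol, as Emx2(fl/fl) minus 123Cre:Emx2(fl/+). Emx2 itself averaged 10.93 in Emx2(fl/fl) and 10.76 in 123Cre:Emx2(fl/+), a difference of 0.17 (SE 0.110, 95% interval -0.11 to 0.44, adjusted p = 0.883 by limma). Both Emx2(fl/fl) values were above both values with Cre and 1 floxed allele, but the interval includes 0. Lhx2 differed by 0.06 (SE 0.101, 95% interval -0.18 to 0.31, adjusted p = 0.908 by limma). One row of 23410 (0.00427%) was called at an adjusted p under 0.05, and 836 had an unadjusted p under 0.05. No row was called with all 8 samples in the fit or by the methods' t-test, and 14 were called without 123Cre:Emx2(fl/+) replicate 2. No OR row was called, and 50 OR rows had an unadjusted p under 0.05.

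**Figure D5:**
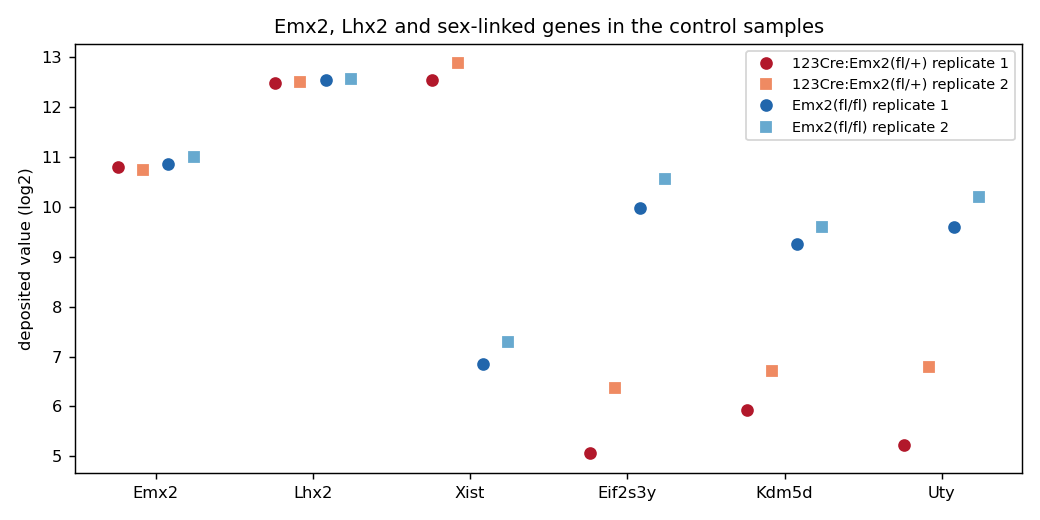
Deposited log2 values of Emx2, Lhx2, Xist, Eif2s3y, Kdm5d and Uty in the 4 control samples, 1 mark per sample, red tones for 123Cre:Emx2(fl/+) and blue tones for Emx2(fl/fl). Emx2 and Lhx2 values lie close together, whereas Xist is above 12 only in the 123Cre:Emx2(fl/+) samples and the Y-linked genes are above 9 only in the Emx2(fl/fl) samples.

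The row called was Xist, the RNA that coats the inactive X chromosome, at 12.54, 12.87, 6.85 and 7.29, lower in Emx2(fl/fl) by 5.63 on the log2 scale (difference -5.63, SE 0.189, adjusted p = 0.00343 by limma). The rows of the next lowest p were Kdm5d and Eif2s3y, genes of the Y chromosome. Eif2s3y had values of 5.06, 6.36, 9.97 and 10.56, and Kdm5d had values of 5.93, 6.70, 9.25 and 9.60, with adjusted p of 0.416 and 0.373 by limma. Uty, also on the Y chromosome, had values of 5.24, 6.79, 9.59 and 10.19. The labels give no sex. Both samples with high Xist and low Y-linked signal were 123Cre:Emx2(fl/+) and both with the reverse were Emx2(fl/fl), so control genotype and sex cannot be told apart in any difference between them. After these came Dlx1, a homeodomain factor of forebrain interneurons, at 7.53, 7.72, 9.12 and 8.83 (adjusted p = 0.557 by limma), and Foxd1, another transcription factor, at 7.25, 7.08, 8.16 and 8.07 (adjusted p = 0.827 by limma). Neither passed the threshold, and the list mean of olfactory bulb and brain genes was likewise higher in both Emx2(fl/fl) samples, 7.99 and 7.74, than in the others, 7.48 and 7.50.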

How the data were processed

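The 4 control samples and their genotypes were taken from the labels. Total RNA of dissected olfactory mucosa was labelled and hybridised to Affymetrix Mouse Gene 1.0 ST arrays by the authors. For each transcript cluster the authors deposited 1 log2 value a sample, and these were used unchanged. Affymetrix Expression Console is named in the submitters' processing notes. The version run and the treatment of background and scale were not given in the sources used here. A normalization to mRNAs of mature OSNs, which the study's methods mention for its mutants, was not applied. No intensities of single probes were used. The platform annotation gives 1 symbol for 21789 rows, several for 1621 and none for 12147, and of the first 21698 were found in the reference gene table (GRCm38.p6). Rows with several symbols named no gene, and 98 of these hold ORs only. No 2 arrays were identical.

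Levels are means and SDs over the 4 control samples. A gene in a list was given by its row of highest control mean. Control genotypes were compared with limma 3.58.1 under R 4.3.3 (two-sided moderated tests from lmFit and eBayes), with Benjamini-Hochberg adjustment over the 23410 rows with a symbol and a threshold of 0.05, and the procedure was tested on simulated data. Members, gene lists and tests were chosen with earlier results of these data known. The text names the markers, Emx2, Lhx2, the 40 highest rows, members of the lists, the 15 highest and 5 lowest OR rows, the 3 highest of each OR class, the highest 3 and the lowest of the other receptor families, the 20 rows of largest SD above the reference level, sex-linked genes and the 5 rows of lowest p between genotypes. Other genes (further TAARs, OR pseudogenes, further rows above the reference level and ORs of large SD) were chosen after their values were seen. Alternatives were quantile normalization, each control sample left out in turn, other reference levels, other ways to summarise the receptor families, ranks over all rows, a fit to all 8 samples, a variance trend with robust fitting, the methods' t-test, leaving out the dimmest 30% of rows, and all rows of the table. The reference level without Gh was added after the data had been seen.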

Additional observations from a re-analysis of the deposited data

Results flagged for a closer look

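Of 63 lists, families and genes examined for 1 control sample far from the other 3, 3 stood out by Dixon's ratio at its 95% level, and chance alone flags about 1 group in 20. That rate does not hold for the genes chosen for a large SD over these samples, of which Slc6a11 is one. The mean of the horizontal basal cell list was 9.53 in Emx2(fl/fl) replicate 1, against 9.26 to 9.30 in the others. Cyp2g1 was 14.08 in 123Cre:Emx2(fl/+) replicate 2, against 14.00 to 14.01 in the others. Slc6a11 was 9.98 in Emx2(fl/fl) replicate 1, against 7.60 to 8.004 in the others.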

How the results depend on the processing

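Of 182 values recomputed under other settings, 152 were labelled unchanged, 30 moved and none reversed. Levels and shares of rows counted as unchanged within 1 SD between samples, and counts within 1.5 times. Differences of Emx2 between control genotypes did so if they kept their sign without an adjusted p under 0.05. Only these could reverse. Leaving out 1 sample, or centring arrays on the median of rows other than receptors, could not move a mean level by 1 SD. Those values among the 152 thus say nothing on robustness. The reference level accounted for more of the 30 than any other choice. With the highest gene of the reference list as the level, 8188 of all rows exceeded it, 48 OR rows (4 of class I and 44 of class II), and 0 TAAR, 0 Vmn1r and 0 Vmn2r rows. With the median of that list, 859 OR rows (102 and 741), 10 TAAR, 25 Vmn1r, 15 Vmn2r and 1 formyl peptide receptor row did. Without Gh in the list, 7 Vmn1r and 2 Vmn2r rows did. When all 4 samples had to exceed the level, 0 Vmn2r rows did. Adding rows with several symbols moved the mean of Vmn1r rows from 5.67 to 5.94 and that of Vmn2r rows from 5.74 to 6.59. Medians in place of means gave 5.56 for Vmn2r and 4.81 for formyl peptide receptors. With each sample left out in turn and the level taken anew, OR rows above it ranged from 436 to 516 and all rows from 14086 to 14307. Vmn1r rows ranged from 4 to 6 and Vmn2r rows from 1 to 2, with 2 without 123Cre:Emx2(fl/+) replicate 1. The mean of OR rows ranged from 7.51 to 7.64. Between control genotypes, 0 rows were called by limma with all 8 samples (478 at an unadjusted p under 0.05) and 0 by the methods' t-test (910), and leaving out a sample gave 1 to 14 calls: 6 without 123Cre:Emx2(fl/+) replicate 1, 14 without 123Cre:Emx2(fl/+) replicate 2 and 5 without Emx2(fl/fl) replicate 2. In these fits the lone sample of a genotype is assumed to vary like the others. No OR was called in any, and the cause of these shifts was not tested. No paired analysis was possible because the labels give no replicate numbers, and numbers here only name samples. Among 1035 OR rows, levels near or below the reference level cannot be told from signal of other sequences.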
